A study of Drosophila melanogaster with 12 samples.

Results

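The proteasome subunit genes were taken from the gene table by symbol: every gene whose symbol starts with Prosalpha or Prosbeta, or with Pros, Rpn or Rpt and a digit, together with Mov34. This rule gave 30 of the 9500 genes listed, and it used no measured value. Of these, 28 encode subunits of the 26S proteasome, 12 in the core particle and 16 in the regulatory particle, and the other 2, Rpt3R and Rpt6R, carry the names of copies of Rpt3 and Rpt6. All 30 passed the filter on low values. Several genes go by older symbols: Pros25, Pros29, Pros28.1 and Pros35 are now named Prosalpha2, Prosalpha3, Prosalpha4 and Prosalpha6, Pros26 is Prosbeta6, Pros26.4 and Pros45 are Rpt2 and Rpt6, Pros54 is Rpn10 and Mov34 is Rpn8. The subunits Rpt5, Prosbeta4 and Rpn13 are listed under Tbp-1, CG17331 and CG13349, which the rule does not take. They are described separately, and the last pair was added after the table had been seen.

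Sequenced RNA came from fat bodies, where the larva stores fat and sugar and from which it secretes proteins into the hemolymph. All larvae were female, at the wandering stage of the third instar, and came from the control stock w1118 (VDRC 60000) crossed to UAS-Dcr2; r4-GAL4, so that every group carried Dicer-2 driven in the fat body. The growth notes also mention RNA interference of InR, but the cross they name holds no such transgene. Larvae were reared on 0.3 M fructose (CFD), 1.7 M fructose (HFD), 0.3 M glucose (CGD) or 1.7 M glucose (HGD), with 3 libraries per diet from separate biological replicates and 12 in all. The values are the deposited normalized signal, here called the normalized value, which the authors had brought to a shared library size within each sugar. Glucose values were multiplied by 0.88 to put the sugars on a shared scale. Fold changes are on the log2(value + 1) scale, which understates the change of low genes, and p-values are from limma with Benjamini-Hochberg adjustment over all 9500 genes, with a gene called at an adjusted p under 0.05.

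The 26S proteasome degrades proteins that carry ubiquitin chains. Its core particle is a barrel of alpha subunits outside and beta subunits inside, with the proteolytic sites on a few of the beta subunits. The regulatory particle caps the barrel: a ring of Rpt ATPases unfolds the substrate and feeds it into the core, and the Rpn subunits bind ubiquitin, cut the chain off and hold the cap together. In flies, as in mammals, transcription of subunit genes can be raised through the cap'n'collar factor cnc when proteasome activity falls short.

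Recovered reads in listed genes ran from 3484912 in HFD replicate 2 to 11134923 in HFD replicate 1, with a median per 26S subunit of 284 and 1199.5 reads in those libraries. Single 26S subunits had 146 to 2430 reads in a library. HFD replicate 2 also stood out for CR41548, a gene of 18S ribosomal RNA, which took 8.668% of its reads and 0.016 to 0.306% in other libraries. Over the 9470 other genes, deviations from the mean of the high-sugar libraries correlated between HFD replicates 2 and 3 (r = 0.219) and between HGD replicates 2 and 3 (r = 0.307), while HFD replicate 1 (r = -0.187 and -0.255 with its replicates) and HGD replicate 1 (r = -0.186 and -0.199) stood apart from theirs. The r of HFD replicate 1 was higher with HGD replicates 2 and 3 (r = -0.110 and -0.060) than with its own replicates. That of HGD replicate 1 was higher with HFD replicates 2 and 3 (r = -0.103 and -0.048) than with its own. Deviations from a shared mean give r below 0 on average even for unrelated libraries, so only the order of these r is read. The labels were used as given, and counts are set below beside those without HFD replicate 1 and HGD replicate 1, a choice made after the data were seen. Markers and pathway genes were looked up by older and current symbols, so some symbols not listed name a gene that was. Fat body markers such as Lsp2 were abundant, 7 of 9 symbols being listed with a summed value of 1447000 to 3233000 per library. With each sugar 0 of the 7 rose and 1 fell, Lsp1alpha, by -1.92 and -1.85 (limma adjusted p = 0.0232 and 0.0197). The median log2 fold changes of the 7 were -0.02 and -0.22. Of 17 muscle markers 16 were listed, and their summed value was 16130 to 28480 on CFD, 32690 to 42670 on HFD, 9278 to 16790 on CGD and 28540 to 40830 on HGD, with 6 rising with fructose, 13 with glucose and 0 falling. For 6 of 9 hemocyte marker symbols the sum was 3175 to 4368, 5427 to 7415, 2772 to 5484 and 6552 to 7770 on the same diets. Of these Pxn, the most abundant on high sugar, rose with both sugars, while Hml, He, nimC1 and lz fell with both, and the median log2 fold changes of the 6 were -0.95 and -1.28. The 5 of 5 salivary gland markers summed to 9011 to 30450 on CFD, 12830 to 14530 on HFD, 1856 to 7097 on CGD and 7944 to 13970 on HGD, and 1 of them, Sgs3, rose with glucose. The 7 of 9 midgut markers summed to 1818 to 4888, 437.3 to 2591, 1983 to 4248 and 855.8 to 1688 on the same diets, with 4 falling with fructose and 3 with glucose. Of the germline marker symbols only 1 of 6 for testis, at 1.9 to 15.2, and 1 of 5 for ovary, the gene wisp, were listed. The value of wisp was 35.7 to 98.3 in control libraries and 802 to 1447 on high sugar. The part of these tissues in the proteasome values was not tested, and in bulk samples fewer cells of a type and less RNA per cell cannot be told apart.

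Some proteasome genes rose on high sugar of either kind, and most of those that rose encode regulatory subunits. With fructose, 11 of the 30 genes rose and 0 fell, where 9.4% of all genes rose and 9.93% fell. With glucose, 12 rose and 0 fell, where 16.7% of all genes rose and 12.9% fell. The fructose count was 6 without CFD replicate 2, HFD replicate 2 or HFD replicate 3 and 7 without HFD replicate 1. Over all genes 709, 571, 752 and 767 were called higher in those fits, in place of 893. Over both sugars 18 rose and 0 fell, beside 21.2% and 20.7% of all genes. The median log2 fold change of the 30 genes was 0.30 with fructose, 0.34 with glucose and 0.31 over both, and that of all genes was -0.02, 0.01 and -0.01.

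Genes as abundant as the proteasome subunits also tended to be higher on high sugar. Of the 944 other genes whose mean value lay in the range of the 28 subunits, 495 to 1410, 20.6% rose and 6.89% fell with fructose, and their median log2 fold change was 0.18. With glucose 35.1% rose and 7.2% fell, with a median of 0.31. Beside these, 35.7% of the 28 subunits rose with fructose and 39.3% with glucose, and 0 fell. With glucose the share of subunits that rose was therefore near that of genes of like abundance, a comparison chosen after the data were seen. Scaling each library to the same total lowered the median of all genes to -0.21 with fructose and -0.20 with glucose and that of the proteasome genes to 0.10 and 0.12. Calls over all genes then split into 418 higher and 958 lower with fructose, in place of 893 and 943, and into 642 higher and 1365 lower with glucose, in place of 1585 and 1225. Under that scaling 1 proteasome gene, Rpt6R, was called with each sugar, and Pros26.4, Pros45 and Rpt6R over both.

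All HFD libraries were above all CFD libraries for 16 of the 30 genes, a pattern shown by 19% of all genes. All HGD libraries were above all CGD libraries for 22, beside 24% of all genes with glucose. The opposite pattern was shown by 0 of the 30 with either sugar, and it was not counted over all genes. Neither pattern was counted over genes of like abundance. The heat map of the 28 subunits shows the levels library by library.

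**Figure D1:**
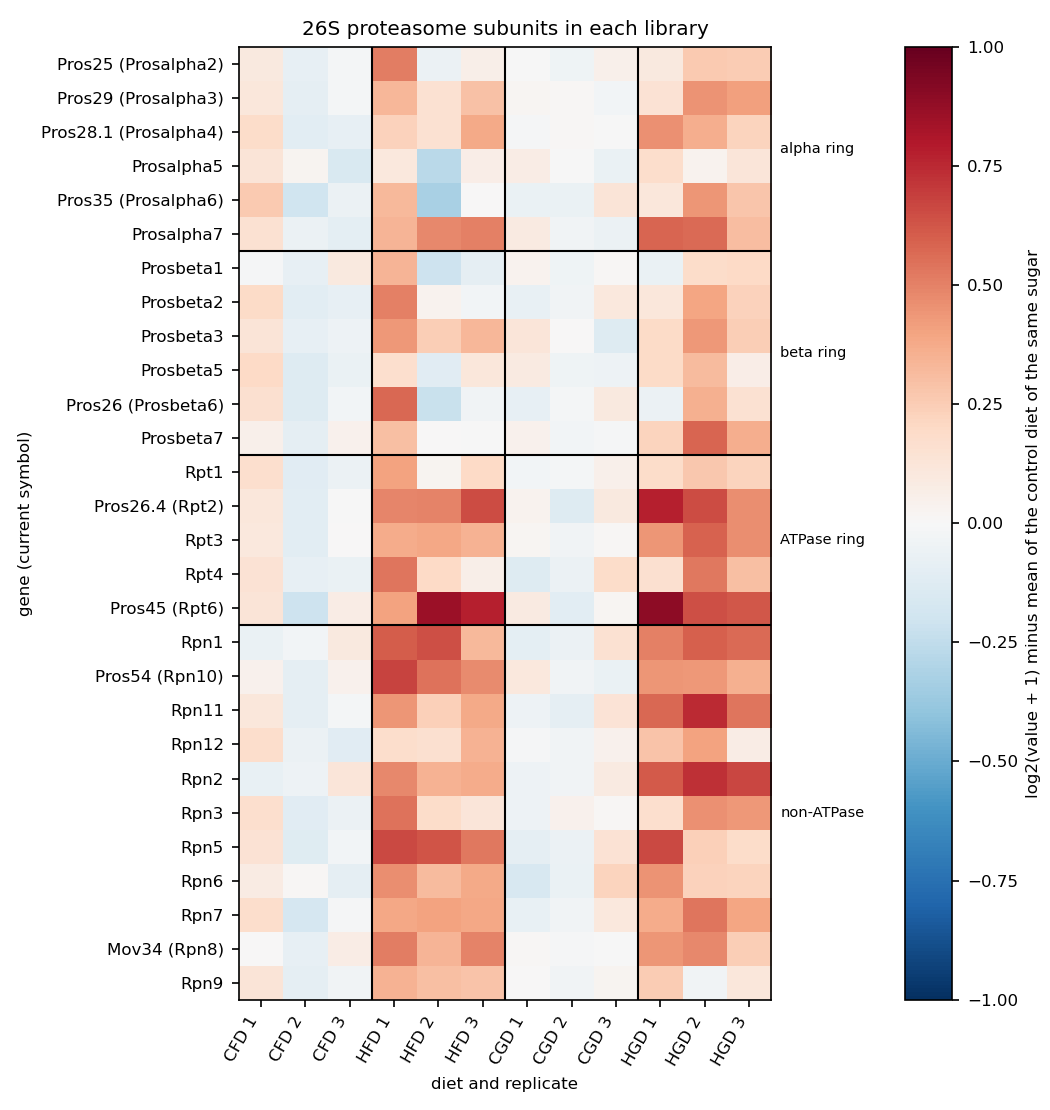
Level of each 26S subunit gene (rows, grouped by ring) in each of 12 libraries (columns), as log2(value + 1) minus the mean of the 3 control libraries of the same sugar. Nearly all regulatory rows are red in the 6 high-sugar libraries, with Rpn9 in HGD replicate 2 below 0, while several core rows are pale or blue in HFD replicate 2.

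Genes of the regulatory particle made up 9 of the 10 subunit calls with fructose and 9 of the 11 with glucose. Of the 16 genes, 9 rose and 0 fell with fructose, and 9 rose and 0 fell with glucose, with median log2 fold changes of 0.39 and 0.40. Of all genes 9.4% and 16.7% rose, and of genes of like abundance 20.6% and 35.1%. Over both sugars 13 of the 16 rose, beside 21.2% of all genes and 41.2% of genes of like abundance. The 95% intervals are not adjusted for the number of genes. They were above 0 for 16 of the 16 and for 5 of the 12 core genes, and were not counted over all genes. Of the core genes 4 of 12 rose over both sugars, beside 21.2% of all genes and 41.2% of genes of like abundance.

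The ATPase ring held the largest change of any 26S subunit. Pros45, which encodes Rpt6 and lies at chrX:21316052-21317663 of BDGP6.54, had normalized values of 472, 374 and 454 on CFD and 570.5, 780.1 and 738 on HFD. On CGD its values were 417, 364 and 397, and on HGD 728, 614 and 604. Every high-sugar library was above every control library. The log2 fold change was 0.68 with fructose (SE 0.15, limma adjusted p = 0.00741) and 0.72 with glucose (SE 0.15, adjusted p = 0.00343). An antisense neighbour, CG1801, overlaps 13% of its exon length and is not among the genes listed.

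Pros26.4, the gene of Rpt2, an ATPase that helps open the gate of the core, followed. Its values were 816, 703 and 752 on CFD against 1061, 1068 and 1187 on HFD, and 749.5, 671 and 782 on CGD against 1256, 1151 and 1012 on HGD. The groups did not overlap with either sugar, at log2 fold changes of 0.55 (SE 0.13, limma adjusted p = 0.00998) and 0.63 (SE 0.13, adjusted p = 0.00291). Rpt3 rose with both sugars, by 0.37 and 0.50 (limma adjusted p = 0.0363 and 0.00557). The fructose call of Rpt3 was lost without CFD replicate 2 or 3, any 1 of the HFD libraries, CGD replicate 1 or 2 or HGD replicate 3. Rpt4 had log2 fold changes of 0.26 and 0.33, which did not pass the test with either sugar (limma adjusted p = 0.26 and 0.129). Over both sugars it was called at 0.30 (limma adjusted p = 0.0449), a call lost in 8 of the 12 fits that left out 1 library and with median-of-ratios scaling, limma-voom or the replicate block.

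Rpt1 had the smallest change in the ring. Its values on CFD were 964, 796 and 826, and on HFD 1135, 874 and 987, where the diets overlapped. With glucose they were 879, 881 and 926 on CGD and 1017, 1078 and 1044 on HGD, without overlap. The log2 fold changes of 0.21 and 0.22 did not pass the test (limma adjusted p = 0.291 and 0.212).

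Among the non-ATPase subunits, 6 of 11 rose with each sugar. Rpn1, a large scaffold of the base that also binds ubiquitin and shuttle proteins, had values of 903, 929 and 1010.0 on CFD and 1440.0, 1484 and 1185 on HFD. It had 822, 844 and 977 on CGD and 1247, 1326 and 1303 on HGD. The groups did not overlap, and Rpn1 rose by 0.53 (SE 0.13, limma adjusted p = 0.0127) with fructose and 0.56 (SE 0.13, adjusted p = 0.00654) with glucose on the log2 scale. Without HFD replicate 2 the fructose call was lost.

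Rpn2, the other large scaffold of the base, had values of 1172, 1194 and 1346 on CFD and 1720.0, 1575 and 1598 on HFD. With glucose the values were 1030.0, 1037 and 1132 on CGD and 1626, 1771 and 1691 on HGD. No library of a high-sugar diet fell among its controls. Rpn2 rose by 0.40 (SE 0.12, limma adjusted p = 0.0311) and 0.67 (SE 0.12, adjusted p = 0.00113) on the log2 scale. The fructose call was lost without CFD replicate 1 or 2, or without any 1 of the HFD libraries, with adjusted p of 0.0648 to 0.0969.

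Rpn11 is the metalloprotease that cuts ubiquitin chains off the substrate. It had values of 544, 473 and 496 on CFD and 682, 594 and 656 on HFD, and of 455, 443 and 518 on CGD and 702, 789 and 683 on HGD. The diets were separate with either sugar, but only the glucose change was called, at a log2 fold change of 0.62 (SE 0.12, limma adjusted p = 0.00273) beside 0.35 (SE 0.12, adjusted p = 0.0642) with fructose. The test of the difference between the sugars gave 0.27 (95% interval -0.12 to 0.65, limma adjusted p = 0.937). Its partner Mov34 (Rpn8) rose with both, by 0.45 and 0.39 (limma adjusted p = 0.018 and 0.0259). The fructose call of Mov34 was lost without CFD replicate 2 or HFD replicate 1 or 3, and the glucose call without CGD replicate 1 or 2 or HGD replicate 1 or 2.

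Rpn5, a scaffold subunit of the lid, was called with fructose only. Its values were 791, 657 and 702 on CFD, 1128, 1104 and 1033 on HFD, 746, 760.2 and 876 on CGD and 1252, 933 and 899 on HGD. HGD replicate 1 stood above the other HGD libraries and near the level of HFD. The log2 fold change was 0.60 (SE 0.15, limma adjusted p = 0.0114) with fructose and 0.36 (SE 0.15, adjusted p = 0.081) with glucose, and the difference of -0.25 had an interval of -0.69 to 0.20 (adjusted p = 0.937).

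Pros54 (Rpn10), a ubiquitin receptor, rose with both sugars, by 0.56 and 0.41 (limma adjusted p = 0.00446 and 0.0183), and so did the lid subunit Rpn7, by 0.39 and 0.43 (adjusted p = 0.042 and 0.0189). Without CGD replicate 2 the glucose call of Pros54 was lost. That of Rpn7 was lost without CGD replicate 1 or 2 or HGD replicate 2, and its fructose call without CFD replicate 2 or 3, any 1 of the HFD libraries, CGD replicate 1 or 2 or HGD replicate 3. Rpn3 and Rpn6 were called only over both sugars together, at 0.32 and 0.34 (limma adjusted p = 0.024 and 0.0105), and the call of Rpn3 was lost in 6 of the 12 fits that left out 1 library. Rpn12, at 0.24, was not called over both sugars (limma adjusted p = 0.0518).

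The smallest change among the lid and base scaffolds was that of Rpn9. It had 728, 625 and 648 on CFD and 848, 820.0 and 813 on HFD, with no overlap. On CGD it had 686, 667 and 697, and on HGD 818, 666 and 738, with 1 HGD library below the controls. Neither log2 fold change, 0.31 or 0.11, passed the test (limma adjusted p = 0.0863 and 0.52).

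**Figure D2:**
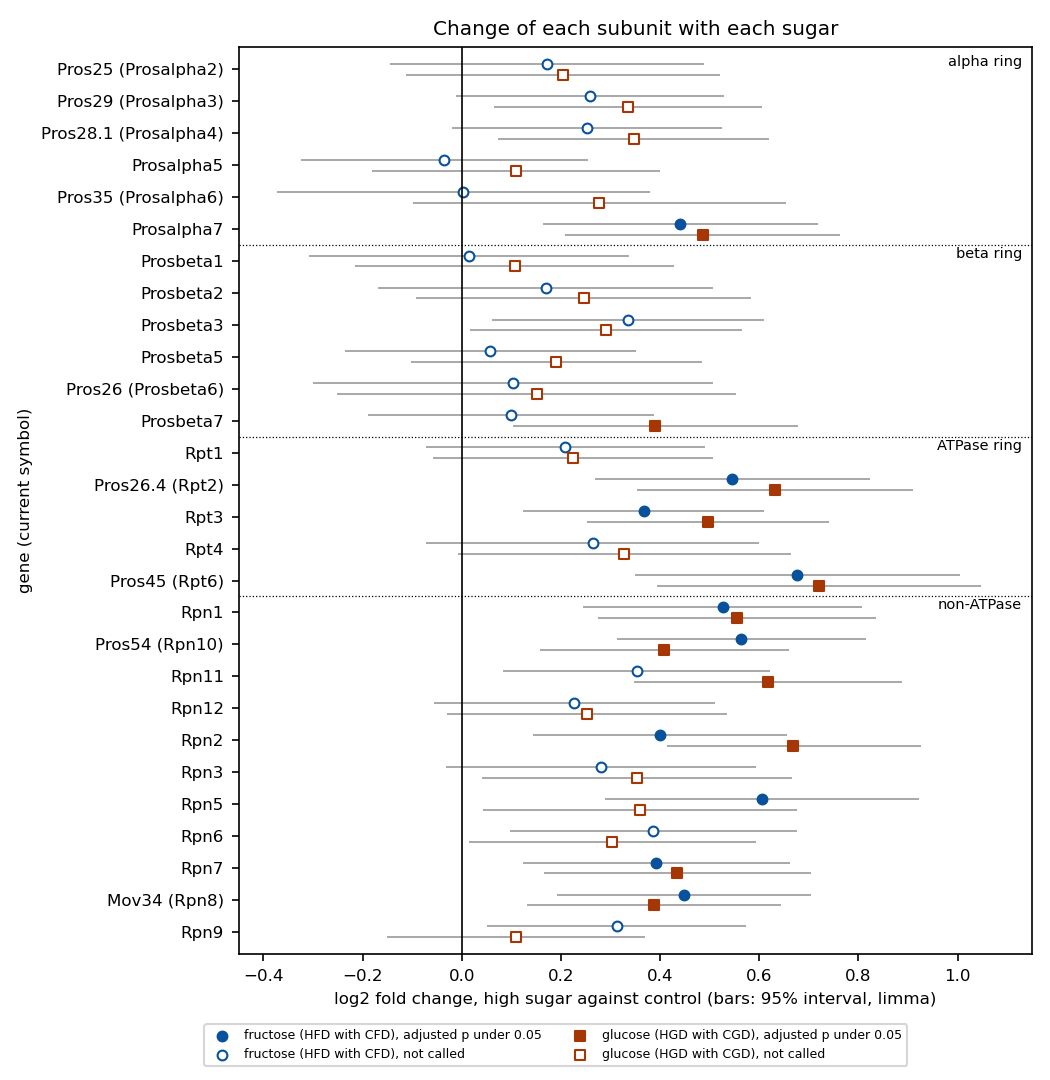
Log2 fold change of each 26S subunit gene on high against control fructose (circles) and glucose (squares), with 95% intervals from limma and filled symbols where the adjusted p was under 0.05. Filled symbols are 1 and 2 among the 12 core genes and 9 and 9 among the 16 regulatory genes.

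The core particle changed less. With fructose 1 of its 12 genes rose, and with glucose 2 rose, with 0 falling in either comparison and median log2 fold changes of 0.14 and 0.26. As shares of 12 these are near the 9.4% and 16.7% of all genes that rose and below the 20.6% and 35.1% of genes of like abundance. Among the 28 subunits ordered by change over both sugars, 11 of the 12 largest changes were of regulatory genes. Under scaling to equal totals the core medians were -0.06 and 0.04 and the regulatory medians 0.19 and 0.18.

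Prosalpha7, a subunit of the outer ring, was the core gene called with both sugars. Its values were 749, 646 and 629.9 on CFD and 849.7, 942 and 954 on HFD. They were 722, 660.5 and 649.6 on CGD and 1011, 1004 and 839 on HGD, again without overlap. It rose by 0.44 (SE 0.13, limma adjusted p = 0.0282) and 0.49 (SE 0.13, adjusted p = 0.0125) on the log2 scale, and the fructose call was lost without CFD replicate 2 or 3 or HFD replicate 2 or 3 (adjusted p = 0.0864 to 0.0957).

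Pros28.1 (Prosalpha4) had values of 721, 593 and 602 on CFD and 746, 707 and 826 on HFD, which overlapped, and of 621, 632 and 626 on CGD and 860.2, 804 and 731 on HGD, which did not. It was called only over both sugars, with a log2 fold change of 0.30 (SE 0.09, limma adjusted p = 0.0161), as was Pros29 (Prosalpha3) at 0.30 (adjusted p = 0.0161). Pros25 (Prosalpha2) and Pros35 (Prosalpha6) were at 0.19 and 0.14 (limma adjusted p = 0.163 and 0.386). Prosalpha5 was the member of the ring that changed least, with 681, 635 and 559.7 on CFD, 669, 516 and 652 on HFD, 632, 599.8 and 575 on CGD and 679.7, 617 and 653 on HGD. Its log2 fold changes were -0.04 and 0.11 (limma adjusted p = 0.89 and 0.566).

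None of the 3 catalytic subunits passed the test with either sugar or over both. Prosbeta1, with the caspase-like site, had values of 479, 456 and 517 on CFD, 613, 419 and 454 on HFD, 492, 465 and 484 on CGD and 459, 546 and 552 on HGD. HFD replicate 1 was above all other libraries and HFD replicate 2 below them. The log2 fold change over both sugars was 0.06 (95% interval -0.17 to 0.29, limma adjusted p = 0.67), the smallest of the beta ring. Under scaling to equal totals its log2 fold changes were -0.18 and -0.11 with fructose and glucose.

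Prosbeta2 carries the trypsin-like site. Its values were 659, 537 and 547 on CFD, 820.4, 592 and 568 on HFD, 527, 541 and 597 on CGD and 600.4, 728 and 649 on HGD. High-sugar and control groups overlapped with fructose and were separate with glucose, and the change over both sugars was 0.21 (95% interval -0.03 to 0.45, limma adjusted p = 0.15).

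Prosbeta5, with the chymotrypsin-like site, had the highest values of the beta ring, 1208, 964 and 1007 on CFD and 1188, 976 and 1141 on HFD. They were 1109, 1009 and 1005 on CGD and 1190.0, 1292 and 1088 on HGD. The groups overlapped with either sugar, and the change over both was 0.12 on the log2 scale (95% interval -0.08 to 0.33, limma adjusted p = 0.322).

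The remaining beta subunits have no active site of their own. Prosbeta3 had values of 585, 507 and 518 on CFD and 722, 636 and 673 on HFD, and of 599, 552 and 503 on CGD and 627, 743 and 654 on HGD. All high-sugar libraries were above their controls, and the gene was called over both sugars at 0.31 (SE 0.09, limma adjusted p = 0.013), though with neither alone (adjusted p = 0.0809 and 0.0992).

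Prosbeta7 had 668, 604 and 662 on CFD and 794, 645 and 641 on HFD, which overlapped. On CGD and HGD it had 621, 591 and 599.7, and 706, 902 and 778, which were separate. It rose with glucose by 0.39 (SE 0.13, limma adjusted p = 0.0417), a call lost in 8 of the 12 fits that left out 1 library, and had 0.10 with fructose (adjusted p = 0.652). The difference between the sugars was 0.29 (95% interval -0.12 to 0.70, limma adjusted p = 0.937). Pros26 (Prosbeta6) was at 0.13 over both sugars (limma adjusted p = 0.466).

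The difference between the particles was measured in each library as the mean log2 level of the 16 regulatory genes minus that of the 12 core genes, set to a mean of 0 in the control libraries of each sugar. It was -0.04, 0.002 and 0.04 in the CFD libraries and 0.12, 0.39 and 0.25 in the HFD libraries. It was -0.05, -0.02 and 0.07 in the CGD libraries and 0.27, 0.10 and 0.13 in the HGD libraries. All 6 high-sugar libraries lay above all 6 controls, and the means were 0.25 ± 0.13 (SD, n = 3) on HFD and 0.17 ± 0.09 (SD, n = 3) on HGD. Scaling of whole libraries cancels in this difference, so the other scalings are no check of it. The mean was 0.19 to 0.32 for fructose and 0.12 to 0.20 for glucose when 1 library was left out at a time. This is a score over genes chosen with earlier results known, so no p is given.

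Core genes varied more among the HFD libraries than regulatory genes. The mean log2 level of the core genes was 0.35, -0.01 and 0.13 in the HFD libraries and 0.18, 0.37 and 0.24 in the HGD libraries. For the regulatory genes the HFD libraries stood at 0.47, 0.38 and 0.38 and the HGD libraries at 0.45, 0.47 and 0.37. HFD replicate 1 was the highest HFD library for 10 of the 12 core genes, and HFD replicate 2, the shallow library rich in 18S reads, was the lowest for 9. The median SD of log2 values over the HFD replicates was 0.19 for core and 0.10 for regulatory genes. Without HFD replicate 1 the median log2 fold change of the core with fructose was 0.002, and without HFD replicate 2 it was 0.25, while that of the regulatory particle was 0.36 and 0.42.

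Among the high-sugar libraries, the share of 18S reads moved with this difference. The larger values of the regulatory-minus-core difference were in HFD replicates 2 and 3 and HGD replicate 1, the libraries with the highest shares of 18S reads, 8.668%, 0.29% and 0.306%, against 0.016% in HFD replicate 1 and 0.039% and 0.032% in HGD replicates 2 and 3. The last 3 libraries had differences of 0.10 to 0.13. The control libraries held 0.04 to 0.086%, with differences of -0.05 to 0.07. Regulatory genes were also longer, with a median exon length of 1542 bases against 974 for the core. All 12 core genes and 2 of the 16 regulatory genes were shorter than 1300 bases, so particle and length can hardly be told apart. Other genes at the level of the subunits were split into 762 of at least 1300 bases and 122 shorter ones. The median log2 level of the longer genes minus that of the shorter was -0.15, -0.002 and 0.19 on CFD. It was -0.01, 0.15 and 0.19 on HFD, 0.04, 0.09 and -0.11 on CGD and -0.05, -0.04 and 0.15 on HGD. The part of 18S share and length in the difference was not tested.

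**Figure D3:**
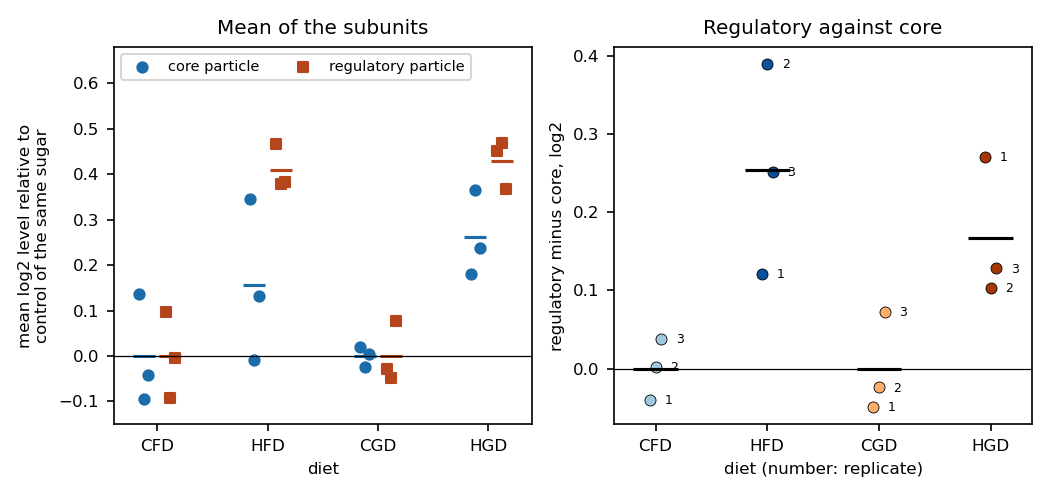
Left, mean log2 level of the 12 core genes (circles) and 16 regulatory genes (squares) per library, relative to the control diet of the same sugar, with a line at the mean of 3 libraries. Right, regulatory minus core per library with the replicate number beside each point, where the 6 high-sugar libraries lie above the 6 controls.

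Per kilobase of exon, core genes were more abundant than regulatory genes, as the plot of levels per length shows. The median value per kilobase of the core genes was 622 in control and 704 in high-sugar libraries, and that of the regulatory genes 404 and 559. Prosbeta5 was highest at 922 in the controls, and Pros45 lowest at 294. On high sugar Rpt4 was the lowest at 395. The ratio of the highest to the lowest subunit was 3.14 in the controls and 2.56 on high sugar. The ratio of the mean regulatory to the mean core value per kilobase was 0.622, 0.638 and 0.652 on CFD, and 0.689, 0.818 and 0.752 on HFD. It was 0.607, 0.62 and 0.662 on CGD, and 0.753, 0.672 and 0.683 on HGD. Every high-sugar library thus had a ratio above every control library.

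**Figure D4:**
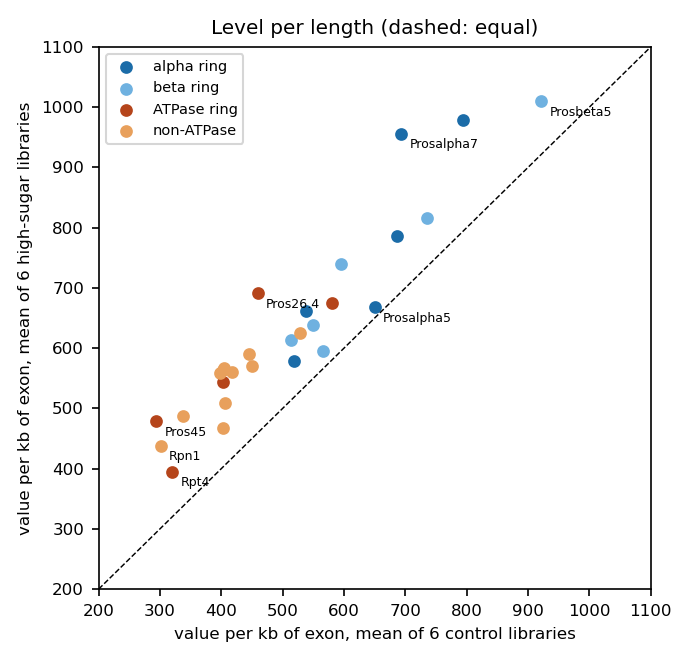
Value per kilobase of exon for each 26S subunit gene, mean of 6 control libraries (horizontal) against mean of 6 high-sugar libraries (vertical), coloured by ring, with the dashed line marking equal levels. Every gene lies above the line, and Pros45 moved from the lowest level of 294 to above Rpt4 and Rpn1.

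The genes varied together across the 12 libraries. The median Pearson r between regulatory genes was 0.821 (120 pairs, lowest 0.461), between core genes 0.672 (66 pairs, lowest 0.029), and between core and regulatory genes 0.619 (192 pairs, lowest -0.065). These are descriptions over libraries that share the diet effect and the scaling.

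Rpt6R changed by more than any 26S subunit, from a very low level. Its values were 2.61, 3.88 and 2.76 on CFD, 10.9, 50 and 39.6 on HFD, 2.72, 6.27 and 5.72 on CGD and 35.8, 14.2 and 17.2 on HGD, from 3 to 38 reads per library. Every high-sugar library was above every control, and HFD replicate 1 was nearer to HGD replicates 2 and 3, and HGD replicate 1 nearer to HFD replicates 2 and 3, than to their own replicates. The log2 fold change was 2.85 with fructose (SE 0.51, limma adjusted p = 0.00183) and 1.94 with glucose (SE 0.51, adjusted p = 0.012). Without CGD replicate 1 or HGD replicate 1 the glucose call was lost (adjusted p = 0.0543 and 0.0507). The gene lies at chr3R:30582198-30583697 of BDGP6.54, away from Pros45 on the X chromosome. Reads that its sequence shares with Pros45 could be counted for either, so its level is uncertain.

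Rpt3R went the other way without passing the test. It had 7.95, 6.81 and 7.02 on CFD, 1.73, 3.77 and 10.3 on HFD, 9.36, 13.3 and 4.92 on CGD and 2.99, 8.86 and 4.29 on HGD, from 1 to 19 reads per library. The groups overlapped with either sugar, at log2 fold changes of -0.64 and -0.69 (95% intervals -1.75 to 0.47 and -1.80 to 0.42, limma adjusted p = 0.421 and 0.331).

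**Figure D5:**
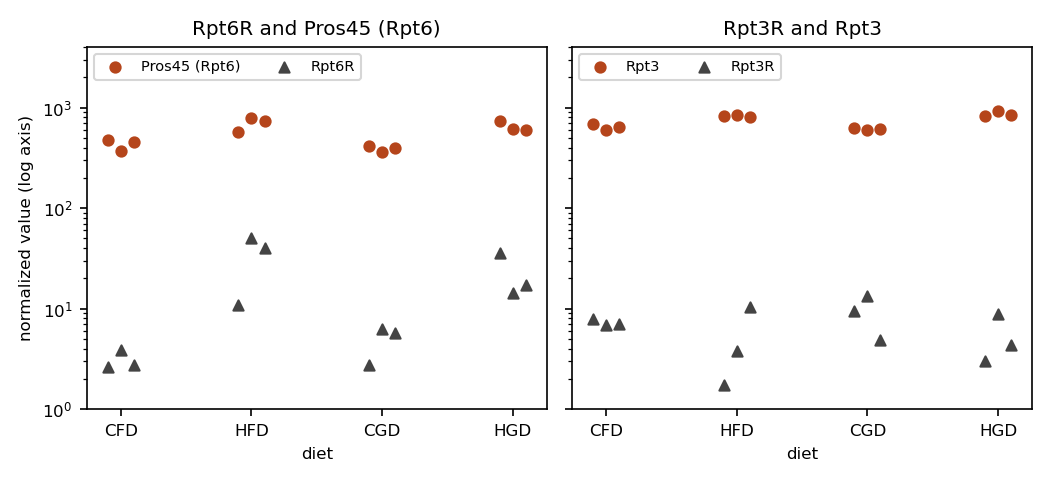
Normalized value per library on a log axis, with Rpt6R (triangles) beside Pros45 (circles) on the left and Rpt3R beside Rpt3 on the right, 3 libraries per diet. The 6 high-sugar libraries of Rpt6R lie above the 6 controls, whereas the diets overlap for Rpt3R.

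The sugars were compared at each concentration and by the difference of their responses. For CGD with CFD, HGD with HFD and the difference between the responses, 0 of the 30 genes were called by limma, 0 had an unadjusted p under 0.05, and 0% of all genes were called. The edgeR exact test of the paper did call a few genes between the control diets, and CG6602 between the high-sugar diets. No proteasome gene is among those it names, and limma here called none of them. The median log2 difference was -0.01 for CGD with CFD and 0.06 for HGD with HFD. For the 28 subunits the 95% intervals of HGD with HFD had a median half-width of 0.28 and reached from -0.43 to 0.68, and those of the difference between the responses had a median half-width of 0.40 and reached from -0.69 to 0.81. Without HFD replicate 1 and HGD replicate 1, 74 genes were called for HGD with HFD and 0 of them was a proteasome gene. Of the 30 genes, 10 were called with both sugars, 1 with fructose only, 2 with glucose only and 17 with neither. Leaving out those libraries gave 8 calls with fructose, 13 with glucose and 17 over both sugars. Over all genes 877, 1496 and 1869 were then called higher, in place of 893, 1585 and 2015.

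Of the 3 subunits under other symbols, Tbp-1 (Rpt5), an ATPase, had 502, 427 and 490.2 on CFD, 716, 703 and 649.5 on HFD, 495, 490.4 and 511 on CGD and 720.4, 613 and 545 on HGD. It rose with fructose by 0.54 (limma adjusted p = 0.0109) and had 0.32 with glucose (adjusted p = 0.0829). CG13349 (Rpn13), a ubiquitin receptor docked on Rpn2, rose with both, by 0.47 and 0.69 (limma adjusted p = 0.028 and 0.00235). CG17331 (Prosbeta4), a core subunit, had 0.15 and 0.15 and was not called (limma adjusted p = 0.45 and 0.4). Their r with the mean of the 30 genes was 0.827, 0.913 and 0.651, which ranked 611, 81 and 1648 among the 9470 other genes.

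Of other genes of the pathway a minority rose, where 9.4% of all genes rose with fructose and 16.7% with glucose, and 20.6% and 35.1% of genes as abundant as the subunits. Of 4 partners of the unfoldase that extracts ubiquitinated proteins, 2 rose with fructose and 3 with glucose: p47 by 0.90 and 1.18 (limma adjusted p = 0.0025 and 0.000239), TER94, the unfoldase itself, by 0.46 and 0.61 (adjusted p = 0.038 and 0.00634), and Npl4 by 0.50 with glucose (adjusted p = 0.0284). Of 25 symbols for ubiquitin and its enzymes 20 were listed, and some of the others are second names of listed genes. Of the 20 genes 1 rose with fructose and 2 with glucose, a smaller share than of all genes with either sugar. Ubi-p63E, a polyubiquitin gene, rose by 0.87 and 0.94 (limma adjusted p = 0.00462 and 0.00185), and Uba1, the ubiquitin-activating enzyme, by 0.38 with glucose (adjusted p = 0.0467). Among activators and associated factors, 9 of 14 symbols were listed, with some of the others second names of listed genes, and 2 rose with fructose and 1 with glucose. Ubqn, which shuttles ubiquitinated proteins, rose by 0.46 and 0.66 (limma adjusted p = 0.0388 and 0.00432), and CG5384 (Usp14), a ubiquitin protease of the regulatory particle, by 0.64 with fructose (adjusted p = 0.0173). The proteasome activator REG and the assembly factor Pomp had log2 fold changes of -0.19 and -0.09 with fructose and -0.39 and -0.34 with glucose, which did not pass the test (limma adjusted p = 0.437, 0.785, 0.0834 and 0.187). Of 4 regulators, 0 rose with fructose and 2 with glucose, cnc by 0.64 and its inhibitor Keap1 by 0.52 (limma adjusted p = 0.00772 and 0.0143). With fructose cnc had 0.38 (limma adjusted p = 0.0989). Of 5 further symbols listed for subunits, Tbp-1 and CG13779 were in the table, and both rose with fructose and neither with glucose. Their differences between the sugars, -0.23 and -0.47, did not pass the test (limma adjusted p = 0.937 and 0.939). For CG13779 replicate 1 stood apart from its replicates on both high-sugar diets, with 398, 642.5 and 616 on HFD and 639, 225 and 294 on HGD. In these 5 lists 0 genes fell.

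The genes outside the set whose levels followed the mean of the 30 most closely over the 12 libraries were CG5966 (r = 0.965), CG9436 (r = 0.962), pinta (r = 0.962), CG15784 (r = 0.957) and CG7130 (r = 0.953). After these came wit (r = 0.951), GRHR, now named AkhR (r = 0.949), CG4802, now Mtap (r = 0.947), GIIIspla2 (r = 0.943) and crl (r = 0.943). AkhR is the receptor of adipokinetic hormone, which mobilizes stored fat and sugar, and wit is a type II receptor of the BMP pathway. All 10 were higher in every high-sugar library than in every control library of the same sugar, by 1.41 to 2.93 times with fructose and 1.52 to 3.2 times with glucose in the ratio of means. This separation was largely given by their choice, since the mean of the 30 genes follows the diets. Of all genes 19% showed it with fructose and 24% with glucose.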

How the data were processed

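The authors deposited a table with 9500 genes and 12 libraries whose values are a normalized signal, in which read counts had been adjusted to a common library size. The paper names TopHat, Bowtie and HTSeq on Ensembl_R72. In the submitters' processing notes the tools are Cufflinks 1.1.0, Bowtie 0.12.7 and TopHat 1.3.2 and the build is dm3, and no source used here settles which of these made the table. A strand setting is not given, so a read in an overlap could belong to either gene. Values had been adjusted separately for fructose and glucose. Whole reads were recovered by running the adjustment backwards, and 99.996% of values were matched to within 0.0001, absolute or relative. For 98.2% of values that tolerance was narrow enough to leave a single whole number of reads.

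From the deposited signal, glucose values were multiplied by 0.88, the ratio of the mean read totals. A mean value of at least 1 was required, which removed 0 genes. The test was limma 3.58.1 under R 4.3.3, with eBayes and a trend, on log2(value + 1) for 12 libraries in 4 diet groups, and it was tried on simulated data. Tests were read from the fit over all genes, and no list was tested. The proteasome genes, lists and alternatives were chosen with earlier results of these data known. Genes were described in full if they had the 2 largest or the smallest change of their ring or group over both sugars, were catalytic, were copies, or were called with 1 sugar only. Gene positions, exon lengths and current names are from Ensembl BDGP6.54, which is not the build named by the paper, and 9073 of 9500 gene IDs were found. Alternatives were pseudocounts of 0.1 and 5, a filter at a value of 10 in 3 libraries, 2 other scalings, no factor between the sugars, limma-voom on recovered reads, fits with a replicate block, fits on 2 diets alone, and omission of each library. Other software was matplotlib 3.10.9, pandas 2.3.3, scipy 1.17.1, numpy 2.4.6 and Python 3.11.15.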

Additional observations from a re-analysis of the deposited data

How the results depend on the processing

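With each library left out in turn, the number of proteasome genes called was 6 to 12 for HFD with CFD, 8 to 13 for HGD with CGD, 16 to 21 over both sugars, and 0 to 0 for CGD with CFD, HGD with HFD and the difference between the responses. The median log2 fold changes were 0.246 to 0.364, 0.299 to 0.367, 0.282 to 0.345, -0.054 to 0.067, 0.001 to 0.07 and -0.017 to 0.118 in the same order. In every such fit Pros26.4, Pros45, Pros54, Rpn5 and Rpt6R were called with fructose, Pros26.4, Pros45, Prosalpha7, Rpn1, Rpn11, Rpn2 and Rpt3 with glucose, and 16 genes over both sugars. Scaling to equal totals gave 1, 1 and 3 calls and medians of 0.099, 0.123 and 0.099 for fructose, glucose and both, where the median of all genes was -0.210, -0.201 and -0.212. Over all genes 418, 642 and 882 were then called higher. Without a factor between the sugars the median was 0.174 for CGD with CFD and 0.241 for HGD with HFD, beside 0.156 and 0.205 for all genes, and 0 genes were called. Both settings rescale whole libraries, which moves all genes nearly alike. Under equal totals the median of the proteasome genes minus that of all genes was 0.309 with fructose and 0.324 with glucose. In the main fit it was 0.314 and 0.328. Why equal totals gave another scale was not tested. Calls were 12, 11 and 17 with median-of-ratios scaling, 10, 12 and 17 with limma-voom, which lost Rpn7 with fructose, and 8 and 9 for each sugar alone with only the 2 diets compared, where Rpn2, Rpn7 and Rpt3 were lost with fructose and Mov34, Pros54 and Prosbeta7 with glucose.

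In the main fit 28 of the 30 proteasome genes had a positive log2 fold change with fructose and 29 with glucose. Of the 944 other genes of like abundance, 68.5% and 72.8% did in that fit, and they were not counted under the other settings. Under equal totals 21 and 23 of the proteasome genes did. With fructose, fits that left out 1 library gave 24 (without HFD replicate 1) to 29 (without CFD replicate 1 or HFD replicate 2). Among the genes described in full, uncalled values changed sign as follows. Under equal totals Prosalpha5 had -0.108 and Rpn9 -0.108 with glucose, Prosbeta7 -0.099 and Prosbeta2 -0.029 with fructose, and Prosbeta1 -0.183 and -0.111 and Prosbeta5 -0.140 and -0.027 with fructose and glucose. With fructose Prosalpha5 had 0.029 without CFD replicate 1 and 0.084 without HFD replicate 2, Prosbeta7 -0.002 and Prosbeta1 -0.148 without HFD replicate 1, with or without HGD replicate 1, and Prosbeta1 -0.027 and Prosbeta5 -0.007 without CFD replicate 2. Over all fits that left out 1 library these ran from -0.112 to 0.084 for Prosalpha5, from -0.002 to 0.152 for Prosbeta7 and from -0.148 to 0.126 for Prosbeta1.

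Same-numbered libraries did not deviate together (r = 0.053, 0.010 and 0.206 for CFD and HFD, -0.055, 0.019 and -0.041 for CGD and HGD), so the numbers were not taken as pairs. With the replicate block 8, 10 and 17 genes were called for fructose, glucose and both, the calls lost being Rpn2, Rpn7 and Rpt3, Mov34 and Prosbeta7, and Rpt4. The shallowest library held 284 reads per subunit at the median.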
